A study of Mus musculus with 46 samples.

Results

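The genes of antigen presentation were described in kidney and liver RNA of castrated and sham-operated mice. They comprised every gene symbol starting with H2- and 14 further genes of the class I and class II presentation pathways. They numbered 43 of the 17242 genes measured at 12 weeks and 45 of the 18531 genes measured at 18 months, with 43 present at both ages. In the GENCODE annotation of the mouse build GRCm38.p6, 35 of the 45 lie on chromosome 17, the chromosome of the H2 complex. Of the 45, 31 belong to class I and 13 to class II. The remaining one, H2-Ke6, carries an H2 name but encodes a steroid dehydrogenase, and it was left out of the counts by class. H2-Q9 and the pseudogene H2-T-ps were measured at 18 months only.

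All mice were WT C57BL6 animals operated on at 8 weeks of age. The castrated males had 6 libraries per tissue at 12 weeks of age and 5 at 18 months. The sham females and the sham males had 3 libraries each per tissue at either age, which gave 46 libraries in 12 groups. The series was made to study healthy ageing after castration. Within each age and tissue the comparisons were castrated males against sham males (castration), sham females against sham males (sex), and castrated males against sham females (residual difference). Castration and sex share the sham males, so the results of these comparisons are not independent of each other.

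Class I molecules pair a heavy chain with the light chain beta-2-microglobulin and show peptides from the cytosol on almost every nucleated cell. The peptides are cut by the proteasome, carried into the endoplasmic reticulum by the Tap transporter and loaded with the help of tapasin. Class II molecules are made mainly by dendritic cells, B cells and macrophages, travel with the invariant chain Cd74, and receive endosomal peptides through H2-DM. Interferon gamma raises both classes through the transactivators Nlrc5 for class I and Ciita for class II, which act on shared promoter elements known as the X and Y boxes.

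The promoters of these genes are the sequences on which the 2 transactivators act, so stretches of 210 bases ending just before the transcript start in the RefSeq promoter table are shown for 8 members on which the results turn. They are RefSeq sequences of the same build, written 5′ to 3′ on the strand of the gene. That GENCODE annotation places the outermost start of H2-D1 and H2-DMb1 further upstream, so the H2-D1 window lies inside the annotated gene, and those of H2-DMb1, H2-T22 and B2m overlap it in part. Capitals mark 4 motifs, searched on both strands: the X1 core AACNGATG, the Y box ATTGG, the kB core GGGGATTCC and the interferon response element core GAAANNGAA. The first 3 are class II genes whose liver values are described below. The next 3 are class I heavy chains, of which H2-K1 and H2-D1 are the classical ones. The last pair are H2-T22, whose sex fold differed between liver and kidney, and the light chain B2m.
H2-Eb1 (chr17:34305657-34305866, + strand): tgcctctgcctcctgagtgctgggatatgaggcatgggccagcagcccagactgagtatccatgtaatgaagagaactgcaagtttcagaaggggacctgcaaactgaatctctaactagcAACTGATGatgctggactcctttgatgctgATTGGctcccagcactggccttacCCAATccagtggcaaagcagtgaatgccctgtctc
H2-DMb1 (chr17:34152981-34153190, + strand): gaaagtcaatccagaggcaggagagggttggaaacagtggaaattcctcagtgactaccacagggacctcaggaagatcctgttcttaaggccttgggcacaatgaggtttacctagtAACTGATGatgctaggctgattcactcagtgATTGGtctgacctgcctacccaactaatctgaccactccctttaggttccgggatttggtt
H2-Aa (chr17:34287824-34288033, - strand): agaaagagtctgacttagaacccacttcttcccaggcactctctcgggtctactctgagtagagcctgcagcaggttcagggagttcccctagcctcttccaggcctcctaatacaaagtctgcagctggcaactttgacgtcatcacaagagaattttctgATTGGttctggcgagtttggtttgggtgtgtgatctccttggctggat
H2-K1 (chr17:34000348-34000557, - strand): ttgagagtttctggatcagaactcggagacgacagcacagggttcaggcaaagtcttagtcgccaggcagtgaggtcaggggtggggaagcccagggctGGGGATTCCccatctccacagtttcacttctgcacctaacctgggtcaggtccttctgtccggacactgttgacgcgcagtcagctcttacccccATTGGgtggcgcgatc
H2-D1 (chr17:35262884-35263093, + strand): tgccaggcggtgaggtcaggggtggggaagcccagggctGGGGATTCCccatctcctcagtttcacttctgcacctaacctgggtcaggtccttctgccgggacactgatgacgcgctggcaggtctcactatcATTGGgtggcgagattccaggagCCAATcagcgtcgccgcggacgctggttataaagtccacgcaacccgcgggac
H2-Q6 (chr17:35424640-35424849, + strand): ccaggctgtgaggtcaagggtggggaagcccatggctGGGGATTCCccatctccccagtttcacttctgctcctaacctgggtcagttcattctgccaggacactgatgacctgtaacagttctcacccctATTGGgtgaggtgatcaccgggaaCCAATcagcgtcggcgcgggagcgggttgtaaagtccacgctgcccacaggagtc
H2-T22 (chr17:36042743-36042952, - strand): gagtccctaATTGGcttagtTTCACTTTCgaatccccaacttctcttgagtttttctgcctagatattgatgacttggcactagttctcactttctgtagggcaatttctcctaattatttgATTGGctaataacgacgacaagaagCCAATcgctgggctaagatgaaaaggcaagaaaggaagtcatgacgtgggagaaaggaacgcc
B2m (chr2:122147477-122147686, + strand): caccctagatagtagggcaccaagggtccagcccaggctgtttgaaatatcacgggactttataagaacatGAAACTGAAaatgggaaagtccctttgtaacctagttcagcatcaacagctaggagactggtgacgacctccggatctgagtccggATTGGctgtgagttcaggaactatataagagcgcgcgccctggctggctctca

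Promoters of 300 bases, with 250 before and 50 after the start, were matched for 36 of the 45 members, and H2-K1 and H2-DMa with 2 starts each brought the number to 38. The X1 core was found in 5 of 11 class II promoters (45.5%), in 0 of 26 class I promoters and in 2.32% of all 32851 promoters. The class II genes with it were H2-Eb1, H2-Eb2, H2-DMb1, H2-DMb2 and Ctss. In the first 4 of these a Y box lay near with at most 30 bases between, a pair present in 36.4% of class II promoters and in 0.198% of all promoters. The Y box alone was common, with a match in 76.9% of class I, 72.7% of class II and 37.4% of all promoters. The kB core was found in 5 class I promoters of 4 genes (19.2%), namely H2-K1, H2-D1, H2-Q6 and H2-Q7, in 0 class II promoters and in 0.25% of all promoters. The 2 promoters of H2-K1 overlap and were counted apart. The interferon response element core was found in 15.4% of class I, 9.09% of class II and 8.56% of all promoters. The GAS element, searched as TTCNNNGAA, was found in 7.69%, 9.09% and 8.30%, and the X2 core TGACGCA in none of the member promoters and 2.12% of all promoters. In H2-Aa, whose promoter is printed above, the letters of the X1 core were not in this window. Only the letters given were searched, so 0 matches do not show that a promoter lacks an X box. The X and Y boxes were searched as known elements of these genes, so finding them is no independent support.

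**Figure D1:**
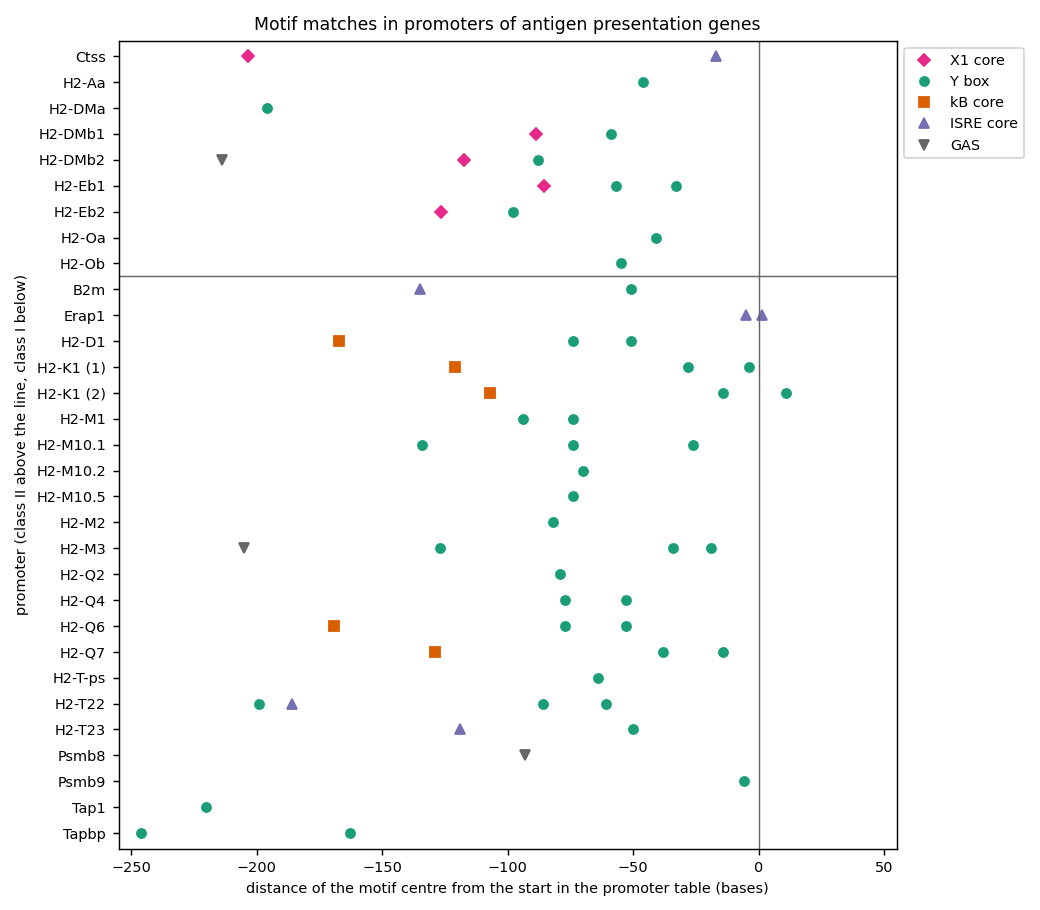
Positions of motif matches (points) in member promoters that hold at least 1 match, with class II above the line and class I below. The x axis gives the distance of the motif centre from the start in the promoter table in bases. The numbers after H2-K1 mark its 2 annotated starts. X1 cores lie beside Y boxes in 4 class II promoters, and kB cores occur in class I promoters and in none of the class II promoters.

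The values are the authors' group means, in FPKM at 12 weeks and in a normalized signal whose unit is not named at 18 months. They carry no spread and no library depth, and how many animals share a direction cannot be read from them. Tests are the authors' own, and a gene was called when their adjusted p was under 0.05. At 18 months their DESeq2 test covers every comparison, and a standard error was implied from each log2 fold and its p-value. At 12 weeks each gene has a deposited test for only 1 of the 3 comparisons, and how that comparison was picked is not stated. In the sex comparison of 12-week liver every gene listed with a test was called, so 12-week counts say little beyond the values themselves. Several members carry the same adjusted p within a tissue at 12 weeks, and such equal values do not rank them. The labels number the libraries of each group but do not state that they came from separate animals, so the p-values may measure technical spread only. Transcripts of kidney and liver followed the labelled tissue, and the Y-linked genes Eif2s3y and Ddx3y followed the labelled sex in all 12 groups. Alb, the hepatocyte marker, was listed at 0 in every 12-week liver group and had 18-month liver means of 48362 in castrated males, 49901 in sham females and 45204 in sham males, so a value listed at 0 at 12 weeks can be a failed estimate. At 18 months the median over all genes that reached a mean of 1 differed by 0.13 in kidney and 0.13 in liver for castration and by 0.11 and 0.14 for sex. Differences below are of log2(mean + 1), which understates the change of genes with low means.

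**Figure D2:**
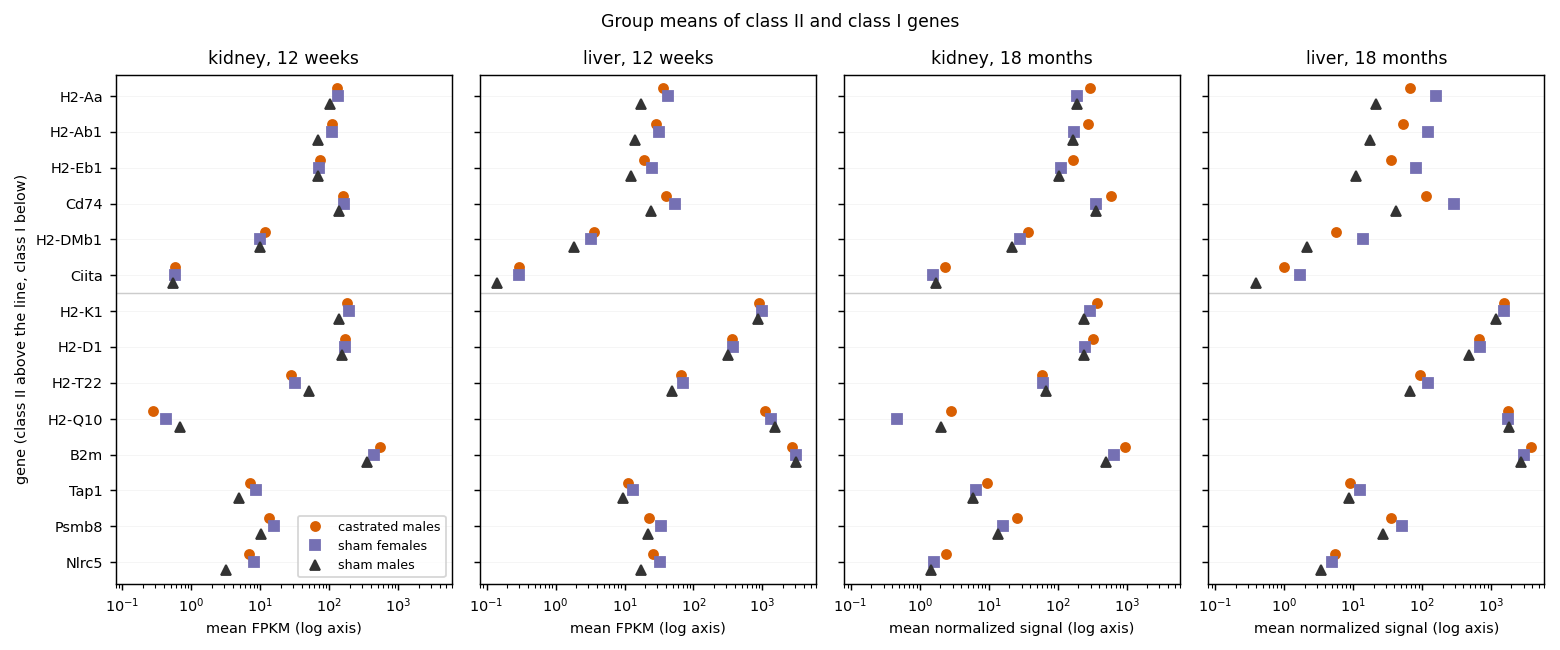
Group means of 14 genes in 4 panels by tissue and age, FPKM at 12 weeks and normalized signal at 18 months, on log axes. Circles are castrated males, squares sham females and triangles sham males, with no error bar because only means were given. In 18-month liver the class II genes are spread with sham females highest and sham males lowest, and in 18-month kidney the circles of the class II genes stand to the right of both other groups.

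In liver the class II chains H2-Aa, H2-Ab1 and H2-Eb1 were at their lowest in sham males at both ages. In bulk RNA, fewer cells of a type and less RNA per cell cannot be told apart, and general leukocyte and macrophage markers followed the same order in these livers. Dendritic, B and T cell markers did not at 12 weeks, and the sums of all lists are given further on. H2-Aa, the alpha chain of the I-A molecule, had 12-week means of 36.4 FPKM in castrated males, 43.0 in sham females and 17.4 in sham males. Its 18-month means were 68.2 in castrated males, 161 in sham females and 21.6 in sham males. H2-Ab1, its beta chain, stood at 28.7 FPKM in castrated males, 31.7 in sham females and 14.3 in sham males at 12 weeks. At 18 months the groups were further apart, with sham females highest. H2-Ab1 then had means of 53.6 in castrated males, 125 in sham females and 17.9 in sham males. For H2-Eb1, another class II beta chain, they were 36.4 in castrated males, 81.6 in sham females and 11 in sham males. H2-Eb2 stayed under a mean of 1 in every group of both tissues.

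Of the 8 class II members that the 12-week liver table lists for castration, 8 rose in castrated males, where 41.7% of all listed genes were called, 20.2% higher and 21.5% lower. H2-Aa rose by 1.03, with an adjusted p of 0.000856 in the authors' deposited table. The largest class II rise in that tissue was that of H2-Ob, a chain of the H2-DM inhibitor H2-DO, with means of 2.79 FPKM in castrated males, 2.17 in sham females and 0.610 in sham males and an adjusted p of 0.000856 in the same deposited table. The median difference over the 10 class II members with a mean of at least 1 was 0.70, beside -0.019 for all genes. For sex the median was 0.91 beside -0.017, and the single class II member listed for it, Ifi30, was called higher, where 100% of all listed genes were called, 47.1% higher and 52.9% lower. Ifi30, the lysosomal thiol reductase that unfolds antigens, had means of 12.2 FPKM in castrated males, 15.8 in sham females and 9.68 in sham males.

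At 18 months the liver difference between sham females and sham males was the widest of the class. The class II median was 2.23 beside 0.14 for all genes, and 11 of 11 class II members with a mean of at least 1 had the higher mean in sham females. Of 13 tested, 4 were called higher, H2-Aa, H2-DMa, H2-DMb1 and Ciita, and 0 were lower, against 9.78% of all genes called, 5.87% higher and 3.91% lower. H2-Aa had an authors' log2 fold of 2.62 (implied SE 0.893) with an adjusted p of 0.0379 in their DESeq2 test. H2-Ab1, H2-Eb1 and Cd74 had folds of 2.53, 2.61 and 2.51 and did not pass the threshold, with adjusted p-values of 0.0514, 0.0513 and 0.0568 in the same DESeq2 table. The implied error behind these folds was large. Over class II members with a mean of at least 5 in the tissue its median was 0.876, against 0.189 for all genes. For castration in the same tissue it was 0.438 against 0.237. Class II folds in liver were thus less precise than those of the typical gene, and the libraries behind that spread cannot be named from means.

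Castration in 18-month liver gave 1 called class II gene of 13, H2-Ab1, where 2.09% of all genes were called, 1.08% higher and 1.01% lower. Its log2 fold was 1.36 (implied SE 0.411) with an adjusted p of 0.047 in the authors' DESeq2 test. H2-Aa and H2-Eb1 had folds of 1.43 and 1.47 with adjusted p-values of 0.0511 and 0.0953 in that table, and 9 of the 13 had an unadjusted p under 0.05. The class II median was 1.06 beside 0.13. Between castrated males and sham females no member was called in 18-month liver by the authors' DESeq2 test. Of all genes 1.13% were called there, 0.53% higher and 0.595% lower. An unadjusted p under 0.05 was found for 8 of 41 members of either class, but for only 1 of the 13 class II members. The class II median of that residual difference was -1.15 beside -0.028.

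In 12-week kidney H2-Aa had means of 131 FPKM in castrated males, 134 in sham females and 101 in sham males. H2-Ab1 stood at 109 FPKM in castrated males, 108 in sham females and 69.0 in sham males. H2-Eb1 had 72.5 FPKM in castrated males, 71.8 in sham females and 69.4 in sham males, a spread of under 5% of its level. Castrated males and sham females thus had nearly equal means of all 3 chains. H2-Aa was called for castration with an adjusted p of 0.0386 and H2-Ab1 for sex with 0.0262, both in the authors' deposited table. These were the only class II rises called in kidney at that age. H2-Aa was 1 of 3 class II members listed for castration, where 70.7% of all listed genes were called, 32.8% higher and 37.9% lower. H2-Ab1 was 1 of 2 listed for sex, where 86.5% were called, 44.4% higher and 42.1% lower. The other listed for sex, Ifi30, fell in sham females, with means of 41.2 FPKM in castrated males, 36.7 in sham females and 52.6 in sham males. Between castrated males and sham females 0 of 10 listed members were called in the authors' deposited table, 0 had an unadjusted p under 0.05, and 7.7% of all listed genes were called, 4.77% higher and 2.93% lower.

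By 18 months the castrated males stood above both sham groups in kidney. H2-Aa had means of 296 in castrated males, 194 in sham females and 188 in sham males. Those of H2-Ab1 were 278 in castrated males, 171 in sham females and 166 in sham males, and those of H2-Eb1 168 in castrated males, 113 in sham females and 104 in sham males. The 2 sham groups differed by less than the implied error in each of these chains. Of 13 class II members 7 rose with castration (H2-Aa, H2-Ab1, H2-Eb1, Cd74, H2-DMa, H2-DMb1 and H2-Ob), and 0 fell, where 22.7% of all genes were called, 9.56% higher and 13.1% lower. The class II median was 0.67 beside 0.13. H2-Ab1 had an authors' log2 fold of 0.59 (implied SE 0.188) with an adjusted p of 0.0099 in their DESeq2 test.

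For sex in 18-month kidney 0 of 13 class II members were called by the authors' DESeq2 test, 0 had an unadjusted p under 0.05, and 16.8% of all genes were called, 7.91% higher and 8.9% lower. The class II median of 0.041 lay below the 0.11 of all genes and has no stable direction, since it was -0.07 once the median of all genes was subtracted. Against sham females, castrated males had higher Cd74, H2-Ab1, H2-DMb2 and H2-Oa, which made 4 of 13, and 12 of the 13 had an unadjusted p under 0.05. The share of all genes called in that comparison was 7.14%, with 2.73% higher and 4.41% lower, and the class II median was 0.57 beside 0.014.

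**Figure D3:**
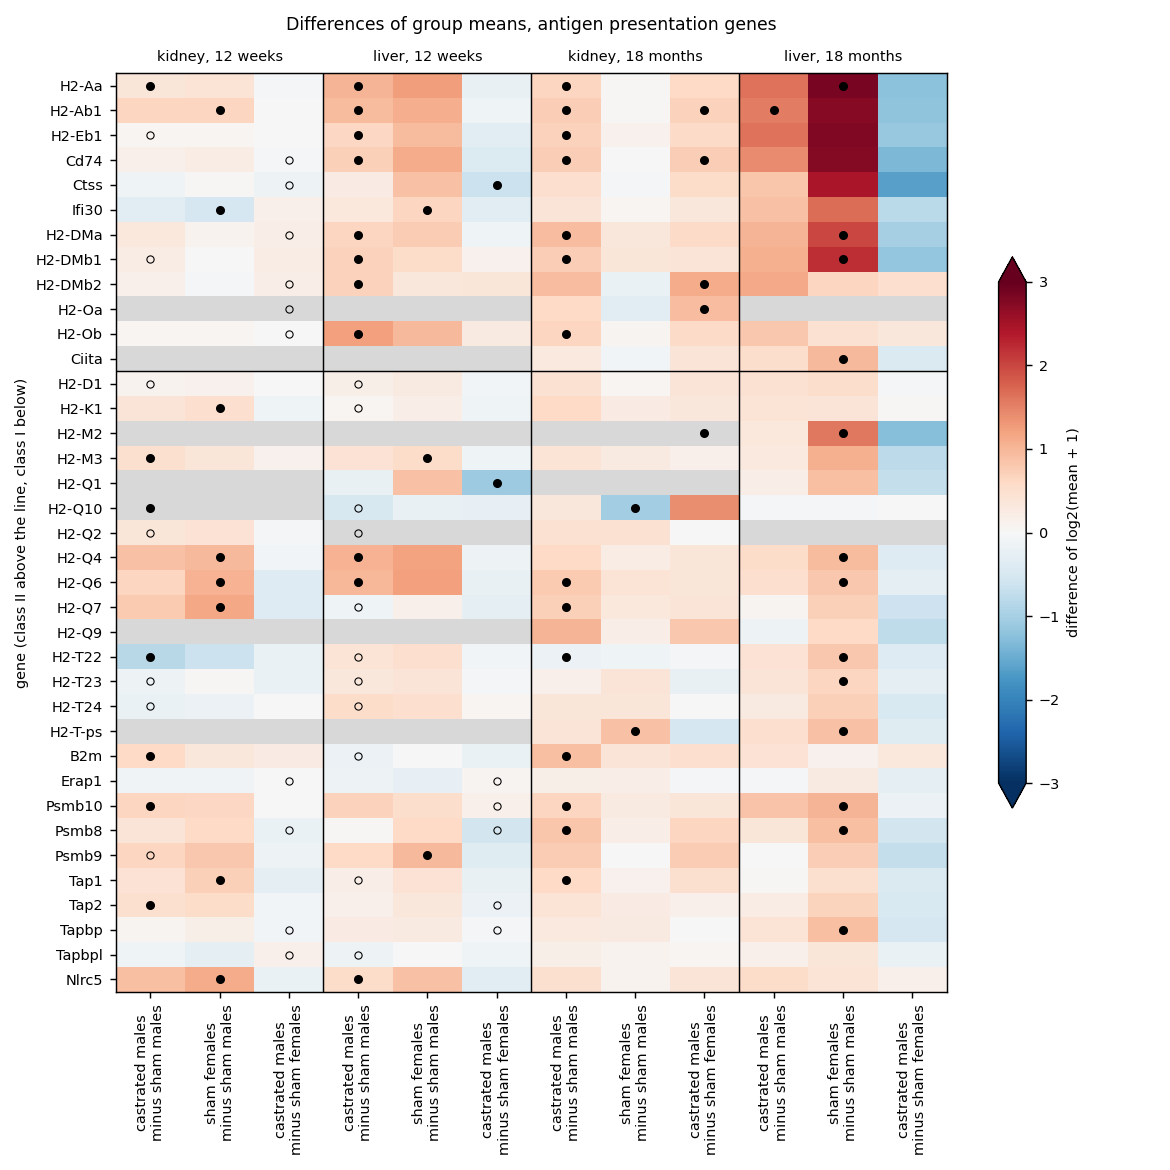
Differences of log2(mean + 1) for members with a mean of at least 1 in some group of the tissue and age (colour, red higher in the first-named group), one column per comparison and one row per gene. Filled dots mark genes with an adjusted p under 0.05 in the authors' tables, open dots at 12 weeks genes listed with a test and not called, and grey cells means under 1 or a gene not measured at 12 weeks. In 18-month liver the column of sham females minus sham males holds the darkest red, in H2-Aa, H2-Ab1, H2-Eb1 and Cd74.

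Cd74, the invariant chain that blocks the class II groove until peptide is loaded, had 18-month kidney means of 594 in castrated males, 355 in sham females and 357 in sham males. Castrated males stood above both sham groups, which differed little. Its fold against sham females was 0.73 (implied SE 0.193) with an adjusted p of 0.00492 in the authors' DESeq2 test. In 18-month liver the order was another, with means of 115 in castrated males, 293 in sham females and 42.5 in sham males. At 12 weeks Cd74 had 39.9 FPKM in castrated males, 53.1 in sham females and 24.1 in sham males in liver and 157 FPKM in castrated males, 163 in sham females and 139.7 in sham males in kidney. Its liver rise with castration had an adjusted p of 0.000856 in the authors' deposited table.

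Ctss, the protease cathepsin S that trims the invariant chain, had 12-week liver means of 10.98 FPKM in castrated males, 17.6 in sham females and 9.17 in sham males. It was lower in castrated males than in sham females there, with an adjusted p of 0.000856 in the authors' deposited table. H2-Q1, a nonclassical class I chain, was the only other member called in that comparison, where 6.85% of all listed genes were, 2.58% higher and 4.28% lower. It was lower in castrated males too, with an adjusted p of 0.000856 in the authors' deposited table. Its means were 2.78 FPKM in castrated males, 7.05 in sham females and 3.38 in sham males, and the castrated and sham males lay close together. At 18 months the liver means of Ctss were 28.4 in castrated males, 90.0 in sham females and 15.5 in sham males, and the DESeq2 adjusted p against sham females was 0.182. In 12-week kidney Ctss stood at 9.81 FPKM in castrated males, 11.04 in sham females and 10.7 in sham males. It had a test there only between castrated males and sham females, and it was not called. Of 6 other lysosomal proteases, 4 of the 4 listed for castration there fell, namely Ctsd, Ctsl, Ctsz and Lgmn, where 70.7% of all listed genes were called and 37.9% were called lower.

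The peptide exchange chains are a further set of class II genes. H2-DMa and H2-DMb1 form H2-DM, which removes the invariant chain fragment from the groove. In 18-month kidney H2-DMa had means of 16.3 in castrated males, 10.63 in sham females and 8.17 in sham males, and H2-DMb1 had 37.3 in castrated males, 28.3 in sham females and 21.9 in sham males. Both rose with castration, with DESeq2 adjusted p-values of 0.00968 and 0.0173. In 18-month liver H2-DMb1 had 5.68 in castrated males, 13.9 in sham females and 2.19 in sham males and a sex fold of 2.39 (implied SE 0.727). Its partner copy H2-DMb2 did not follow that order, with liver means of 2.40 in castrated males, 1.41 in sham females and 0.543 in sham males, highest in castrated males. H2-DMb1 and H2-DMb2 share 5.74% and 5.40% of their 150-base windows, so a small part of their reads cannot be told apart. In kidney H2-DMb2 had 4.42 in castrated males, 1.51 in sham females and 1.87 in sham males, and H2-Oa, a chain of the inhibitor H2-DO found mainly in B cells, had 2.50 in castrated males, 0.847 in sham females and 1.33 in sham males. Both were higher in castrated males than in sham females there, with DESeq2 adjusted p-values of 0.035 and 0.0165.

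Ciita, the transactivator without which class II genes are silent, had low means throughout. In 18-month liver they were 1.01 in castrated males, 1.74 in sham females and 0.397 in sham males. Its sex fold was 1.76 (implied SE 0.597) with an adjusted p of 0.0375 in the authors' DESeq2 test. In 18-month kidney the means were 2.33 in castrated males, 1.56 in sham females and 1.72 in sham males, and no comparison was called for it there. At 12 weeks every group was under 1 FPKM, with liver means of 0.295 FPKM in castrated males, 0.291 in sham females and 0.142 in sham males. Of 7 genes for factors that bind the X and Y boxes (Rfx5, Rfxap, Rfxank, Creb1, Nfya, Nfyb and Nfyc) 0 rose and 1, Nfyb, fell in sham female liver at 18 months, where 9.78% of all genes were called. Rfxank alone rose with castration in 18-month kidney, where 9.56% of all genes did.

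In liver the median differences of class I genes for castration and for sex were below those of class II genes at both ages. H2-K1 and H2-D1, the classical heavy chains that present to CD8 T cells, had 12-week liver means of 884 FPKM in castrated males, 973 in sham females and 852 in sham males for H2-K1 and 358 FPKM in castrated males, 378 in sham females and 315 in sham males for H2-D1. Sham females had the highest means of both and sham males the lowest. In 18-month kidney the means were 371 in castrated males, 291 in sham females and 245 in sham males for H2-K1 and 329 in castrated males, 250.4 in sham females and 241 in sham males for H2-D1. Their castration folds of 0.45 and 0.31 had DESeq2 adjusted p-values of 0.0599 and 0.228, above the threshold. At 12 weeks H2-K1 was called for sex in kidney, with means of 178 FPKM in castrated males, 194 in sham females and 136 in sham males and an adjusted p of 0.014 in the authors' deposited table.

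H2-Q4, H2-Q6 and H2-Q7, nonclassical heavy chains of the Q region, were lowest in sham males in both tissues at 12 weeks, except H2-Q7 in liver. H2-Q6 had kidney means of 29.7 FPKM in castrated males, 39.3 in sham females and 18.6 in sham males, and H2-Q4 had 34.1 FPKM in castrated males, 36.4 in sham females and 17.9 in sham males. In liver H2-Q4 had 60.1 FPKM in castrated males, 67.3 in sham females and 28.6 in sham males, and H2-Q6 had 34.0 FPKM in castrated males, 39.9 in sham females and 16.6 in sham males. In the authors' deposited table the kidney sex difference of both had an adjusted p of 0.000476 and the liver castration difference one of 0.000856. H2-Q7 in liver had 35.7 FPKM in castrated males, 43.5 in sham females and 39.3 in sham males, and sham males did not stand lowest. H2-Q6 shares 5.99% of its 150-base windows with H2-Q7, and H2-Q7 shares 9.68% with other genes, so the split of reads between them is uncertain. H2-Q9 was not found in the annotation used, so windows shared with it were not counted. At 18 months H2-Q6 rose with castration in kidney, with a fold of 0.65 (implied SE 0.198) and a DESeq2 adjusted p of 0.00721, and was higher in sham females in liver, with 0.61 (implied SE 0.176) and 0.00979.

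H2-Q10, a secreted class I chain made by hepatocytes, was the most abundant heavy chain per length in 12-week liver. Its share of all class I heavy chain FPKM there was 40.3% in castrated males, 42.5% in sham females and 51.3% in sham males. The share of H2-K1 was 32.3% in castrated males, 31.4% in sham females and 28.5% in sham males. In kidney H2-Q10 was low, at 0.274 FPKM in castrated males, 0.424 in sham females and 0.690 in sham males at 12 weeks, and its fall with castration had an adjusted p of 0.0198 in the authors' deposited table. In 18-month kidney its means were 2.85 in castrated males, 0.473 in sham females and 2.02 in sham males, and it was lower in sham females with a fold of -2.24 (implied SE 0.560) and a DESeq2 adjusted p of 0.000806. The hepatocyte transcript Alb in the same 18-month kidneys had 65.1 in castrated males, 12.8 in sham females and 21.7 in sham males, and Apoa1 had 14.0 in castrated males, 1.29 in sham females and 4.88 in sham males, the same order of groups. Of the 6 hepatocyte markers 4 shared that order (Alb, Apoa1, Cps1 and Serpina1c), and Fgb was lowest in sham males. Ttr did not follow it, with 53.9 in castrated males, 61.6 in sham females and 98.0 in sham males, and it fell with castration at a DESeq2 adjusted p of 1.72e-06. The summed level of the 6 was 152 in castrated males, 82.2 in sham females and 134 in sham males. The part of liver RNA in the kidney values of H2-Q10 was not tested.

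H2-T22, a nonclassical chain recognised by gamma delta T cells, fell with castration in kidney at both ages. At 12 weeks it had means of 28.2 FPKM in castrated males, 32.3 in sham females and 50.9 in sham males, with an adjusted p for castration of 0.00388 in the authors' deposited table. Its share of class I heavy chain FPKM was 5.34% in castrated males, 5.59% in sham females and 10.9% in sham males. At 18 months it had 59.5 in castrated males, 61.5 in sham females and 67.3 in sham males and a castration fold of -0.30 (implied SE 0.112) with a DESeq2 adjusted p of 0.033. In 18-month liver it was higher in sham females than in sham males, with means of 93.0 in castrated males, 121 in sham females and 68.5 in sham males and a fold of 0.60 (implied SE 0.166) at a DESeq2 adjusted p of 0.00694. H2-T22 shares 0.931% of its 150-base windows with H2-T10. H2-T23, which encodes Qa-1, a ligand of inhibitory NK cell receptors, had 18-month liver means of 286 in castrated males, 344 in sham females and 219 in sham males and was called for sex there, with a DESeq2 adjusted p of 0.039.

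B2m, the light chain that every class I heavy chain needs, rose with castration in kidney at both ages. Its 12-week kidney means were 539 FPKM in castrated males, 452 in sham females and 355 in sham males, with an adjusted p of 0.00127 in the authors' deposited table. At 18 months they were 934 in castrated males, 659.7 in sham females and 500.5 in sham males, with a castration fold of 0.76 (implied SE 0.188) and a DESeq2 adjusted p of 0.000567. In liver no comparison of B2m that was tested was called, and its 18-month means were 3794 in castrated males, 3031 in sham females and 2787 in sham males.

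The immunoproteasome subunits Psmb8, Psmb9 and Psmb10 replace the standard catalytic subunits and favour class I peptides. In 18-month kidney Psmb8 had means of 25.5 in castrated males, 16.0 in sham females and 13.8 in sham males. Psmb10 had 22.4 in castrated males, 17.1 in sham females and 13.9 in sham males. Both rose with castration, with DESeq2 adjusted p-values of 0.0173 and 0.0191. Of the standard subunits, Psmb5 and Psmb7 fell with castration in kidney at both ages and in 12-week liver. In 18-month kidney they made 2 of 3 tested, where 13.1% of all genes fell, and the third subunit, Psmb6, had 156 in castrated males, 135 in sham females and 147 in sham males and was not called. Psmb5 there had 252 in castrated males, 223 in sham females and 279 in sham males, with a DESeq2 adjusted p of 0.0334. In 18-month liver Psmb8 and Psmb10 were higher in sham females, with means of 35.7 in castrated males, 52.4 in sham females and 27.7 in sham males for Psmb8 and 51.4 in castrated males, 57.9 in sham females and 28.0 in sham males for Psmb10, and Psmb5 and Psmb7 were lower there, where 3.91% of all genes were.

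Tap1, a subunit of the peptide transporter, rose with castration in 18-month kidney, with means of 9.49 in castrated males, 6.57 in sham females and 5.92 in sham males and a DESeq2 adjusted p of 0.0448. Tapbp, which encodes tapasin, was called in 18-month liver, with means of 47.6 in castrated males, 67.7 in sham females and 35.6 in sham males and a sex fold of 0.71 (implied SE 0.175) at a DESeq2 adjusted p of 0.00184. Erap1, the aminopeptidase that trims peptides in the endoplasmic reticulum, and Tapbpl, a tapasin relative, were called in no comparison that was tested at either age. Nlrc5, the class I transactivator, had 12-week kidney means of 6.90 FPKM in castrated males, 8.09 in sham females and 3.22 in sham males and was called for sex, with an adjusted p of 0.000476 in the authors' deposited table. In 12-week liver it rose with castration, with means of 25.9 FPKM in castrated males, 32.8 in sham females and 17.3 in sham males. At 18 months no comparison of Nlrc5 was called, and its kidney means were 2.39 in castrated males, 1.61 in sham females and 1.44 in sham males.

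Over all class I members, 6 of 30 rose and 1 fell with castration in 18-month kidney, where 9.56% of all genes were called higher and 13.1% lower, with a median of 0.46 beside 0.13. For sex in 18-month liver 9 of 26 were higher and 0 lower, where 5.87% of all genes were called higher and 3.91% lower, with a median of 0.72 beside 0.14. For castration in that liver 0 of 27 were called by the DESeq2 test, against 2.09% of all genes, and 1, Psmb10, had an unadjusted p under 0.05. At 12 weeks 4 rose and 2 fell of 11 listed for castration in kidney, where 32.8% of all listed genes were called higher and 37.9% lower. The class I median there was 0.42 and the class II median 0.16, beside 0.022 for all genes. In 12-week liver 3 of 14 listed for castration rose, where 20.2% of all listed genes were called higher. The shares of class I members called in these 12-week comparisons were below the 70.7% of all listed genes in kidney and the 41.7% in liver. For sex in 12-week kidney 6 of 6 listed were higher (H2-K1, H2-Q4, H2-Q6, H2-Q7, Nlrc5 and Tap1), where 86.5% of all listed genes were called and 44.4% were called higher, with a median over the class of 0.47 beside -0.012. For sex in 18-month kidney 1 of 29 was higher, H2-T-ps, and 1 lower, H2-Q10, where 7.91% of all genes were called higher and 8.9% lower, with a median of 0.24 beside 0.11. Between castrated males and sham females in that kidney 1 of 27 class I members was called, against 7.14% of all genes, and 10 had an unadjusted p under 0.05. Members under a mean of 1 in every group numbered 12 and 11 in 12-week kidney and liver and 9 in each tissue at 18 months. They included H2-M1 and 3 H2-M10 genes, which were listed at 0 in every liver group. H2-M2, a nonclassical chain, left this set in 18-month liver, with means of 0.456 in castrated males, 2.51 in sham females and 0.177 in sham males and a sex fold of 3.63 (implied SE 1.03) at a DESeq2 adjusted p of 0.00845. In 18-month kidney it was called higher in castrated males than in sham females at a DESeq2 adjusted p of 0.0474, with means of 0.910 in castrated males, 0.263 in sham females and 0.367 in sham males, all under 1.

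Among the remaining members, Tap2, the other transporter subunit, rose with castration in 12-week kidney, with means of 13.4 FPKM in castrated males, 14.2 in sham females and 9.33 in sham males. H2-M3, which presents formylated peptides, rose there as well, with 3.09 FPKM in castrated males, 2.73 in sham females and 1.91 in sham males, and was higher in sham females in 12-week liver, with 2.41 FPKM in castrated males, 2.71 in sham females and 1.53 in sham males. Psmb9 was the other class I member called for sex in 12-week liver, with 20.3 FPKM in castrated males, 26.4 in sham females and 13.1 in sham males. In each of these 4 cases the sham males had the lowest mean. The pseudogene H2-T-ps was called higher in sham females in both tissues at 18 months, with means of 2.60 in castrated males, 4.07 in sham females and 1.75 in sham males in kidney and 1.15 in castrated males, 1.79 in sham females and 0.517 in sham males in liver. The DESeq2 adjusted p-values were 0.0109 in kidney and 0.0192 in liver. H2-Q9 was called in no 18-month comparison. H2-Ke6, the member outside antigen presentation, had 18-month kidney means of 121 in castrated males, 107 in sham females and 111 in sham males and liver means of 133 in castrated males, 96.0 in sham females and 107 in sham males, and it shares 20.8% of its 150-base windows with an overlapping annotated gene.

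**Figure D4:**
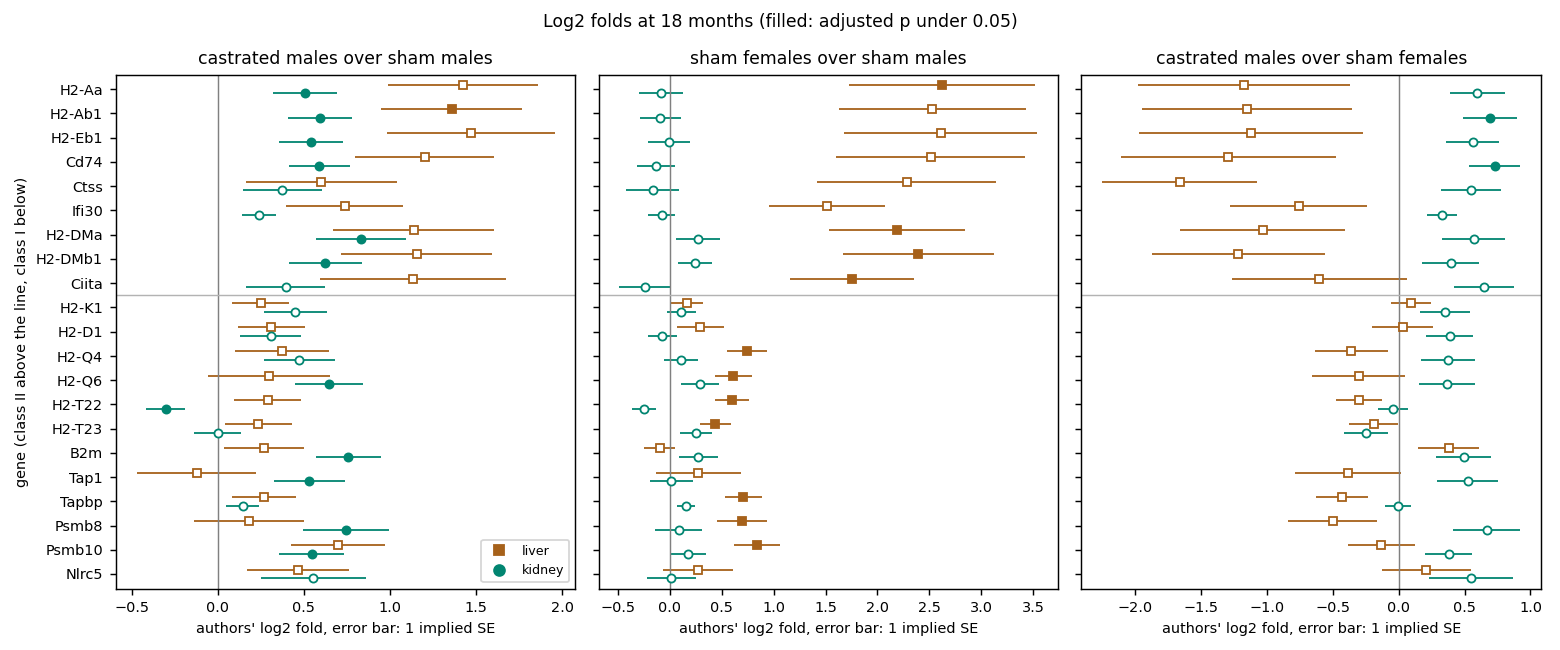
Authors' log2 folds at 18 months in liver (squares) and kidney (circles), with bars of 1 implied standard error and filled symbols for an adjusted p under 0.05. In the middle panel, sham females over sham males, the liver folds of H2-Aa, H2-Ab1, H2-Eb1 and Cd74 lie between 2.51 and 2.62, and their kidney folds between -0.13 and -0.011.

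The difference between tissues was tested at 18 months, as liver fold minus kidney fold with the 2 implied errors in a Wald test, adjusted over all genes. Animals may have given both tissues, and that link was not modelled. For sex, 7.11% of all genes differed between tissues, 4.47% with the higher fold in liver and 2.63% with the lower, and 5 members did. H2-Aa differed by 2.71 (SE 0.917) with a Wald adjusted p of 0.0467. Ciita differed by 1.9997 (SE 0.644) with a Wald adjusted p of 0.0317. H2-T22, H2-Q10 and H2-M2 were the others, all with the higher fold in liver, and their Wald adjusted p-values were 0.00118, 0.0168 and 0.0353. For H2-Q10 both folds were negative, at -0.26 in liver and -2.24 in kidney, so it was not higher in sham female liver. Over the 13 class II genes the median difference was 2.36, and 10 had an unadjusted Wald p under 0.05. For castration 0 members differed by the Wald test after adjustment, 3 had an unadjusted p under 0.05, and 2.8% of all genes differed, 1.73% with the higher fold in liver and 1.07% with the lower. The larger castration folds of class II genes in liver are therefore not shown to differ from those in kidney. For the residual difference Ctss differed by -2.21 (SE 0.631) and H2-M2 by -4.25 (SE 1.05), with Wald adjusted p-values of 0.046 and 0.0118, where 1.13% of all genes differed, 0.542% with the higher fold in liver and 0.584% with the lower. In that comparison 7 of 13 class II and 8 of 26 class I genes had an unadjusted Wald p under 0.05. The class II median difference was -1.61.

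Of 14 genes of the interferon gamma pathway, which induces both classes, 6 were higher in sham females in 18-month liver (Cxcl10, Gbp2, Gbp3, Gbp7, Irf1 and Irf8) and 0 lower, where 5.87% of all genes were called higher and 3.91% lower, with a median of 0.99 beside 0.14 for all genes. Irf1, the factor through which interferon gamma reaches Ciita and class I promoters, had means of 24.2 in castrated males, 24.4 in sham females and 15.0 in sham males. In 18-month kidney 2 of 14 rose with castration, Cxcl9 and Gbp3, and Jak1 fell, where 9.56% of all genes were called higher and 13.1% lower. Of 14 type I interferon response genes 9 of the 9 listed for sex in 12-week kidney were higher in sham females, where 86.5% of all listed genes were called and 44.4% were called higher. In 18-month liver 1 of 14, Ifit2, was higher in sham females. Of 5 costimulation genes Cd86 and Icosl rose with castration in 18-month kidney, and both were higher in sham females in 18-month liver. Of 8 other class I loading genes, Psme1, an activator of the proteasome, rose with castration in 18-month kidney while Canx, Npepps and Psme3 fell. For these last lists the shares of all genes are those just given for the same comparisons.

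Markers of immune cells were set beside the class II genes. In 18-month liver the summed means of 8 general leukocyte markers were 79.5 in castrated males, 133 in sham females and 45.7 in sham males, and 6 of 8 were called higher in sham females. Those of 10 macrophage and Kupffer cell markers were 161 in castrated males, 426 in sham females and 106 in sham males, with 7 of 10 called higher. The summed class II means ran in the same order, at 336 in castrated males, 811 in sham females and 123 in sham males. T cell markers summed to 7.05 in castrated males, 9.95 in sham females and 1.76 in sham males, with 3 of 8 called, and dendritic cell markers to 8.19 in castrated males, 13.2 in sham females and 3.59 in sham males, with 2 of 8 called. The B and plasma cell markers stood in another order, 29.2 in castrated males, 22.6 in sham females and 9.26 in sham males. Endothelial markers were called higher in 5 of 8, and 5.87% of all genes were called higher in that comparison. Of these markers none was listed at 0 in all groups of that tissue.

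In 18-month kidney the leukocyte markers summed to 134 in castrated males, 82.0 in sham females and 89.1 in sham males, and the T cell markers to 16.7 in castrated males, 8.13 in sham females and 10.197 in sham males. Of the 8 leukocyte markers 1, Coro1a, rose with castration, where 9.56% of all genes did, and 4 of 8 were higher in castrated males than in sham females, where 2.73% of all genes were. Castrated males had the highest sums, as for class II genes. The dendritic cell, B and plasma cell, macrophage and endothelial lists were highest in castrated males there too. For B and plasma cells the sums of castrated and sham males were nearly equal, at 65.6 in castrated males, 56.9 in sham females and 64.7 in sham males. The macrophage markers summed to 184 in castrated males, 154 in sham females and 130 in sham males. The endothelial markers summed to 275 in castrated males, 246 in sham females and 197 in sham males. The ratio of summed class II means to summed leukocyte marker means was 11.3 in castrated males, 11.7 in sham females and 10.502 in sham males in that tissue. In 18-month liver the same ratio was 4.22 in castrated males, 6.09 in sham females and 2.70 in sham males. The liver ratios were further apart than the kidney ratios. Set against the macrophage markers, the liver ratios were 2.08 in castrated males, 1.90 in sham females and 1.17 in sham males. The kidney ratios to macrophage markers at that age were 8.23 in castrated males, 6.24 in sham females and 7.19 in sham males. The leukocyte markers of 12-week liver summed to 58.8 in castrated males, 61.5 in sham females and 37.6 in sham males, and the macrophage markers to 136 in castrated males, 237 in sham females and 84.9 in sham males. The order of groups was that of the class II chains in both lists. The dendritic cell markers there summed to 12.9 in castrated males, 10.27 in sham females and 5.24 in sham males, the B and plasma cell markers to 24.5 in castrated males, 14.6 in sham females and 8.28 in sham males, and the T cell markers to 7.25 in castrated males, 6.78 in sham females and 2.95 in sham males. Those 3 lists stood in another order, with castrated males highest. At 12 weeks the class II to leukocyte ratios were 2.72 in castrated males, 3.20 in sham females and 2.45 in sham males in liver and 8.67 in castrated males, 8.01 in sham females and 9.35 in sham males in kidney. These ratios rest on means alone and carry no error, and the part of immune cell numbers in the class II differences was not tested.

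**Figure D5:**
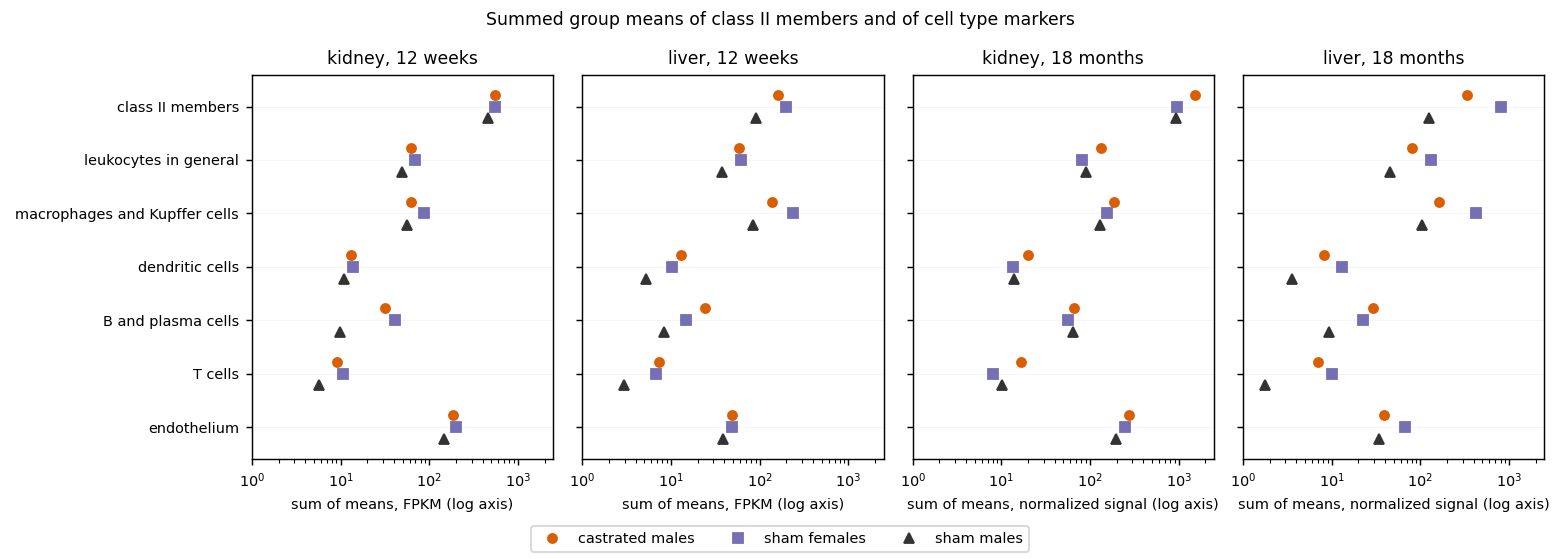
Summed group means of the 13 class II members and of 6 lists of cell type markers, in panels by tissue and age, on log axes (FPKM at 12 weeks, normalized signal at 18 months). Circles are castrated males, squares sham females and triangles sham males. In 18-month liver class II members and all lists but B and plasma cells share the order of sham females, castrated males, sham males. Castrated males are highest for class II members and for all 6 lists in 18-month kidney, though nearly equal to sham males for B and plasma cells.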

How the data were processed

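RNA of kidney and liver was sequenced in 46 libraries. The tools named without versions in the submitters' processing notes are HISAT2, SAMtools and Cufflinks, and the build is mm10. The deposited 12-week values are group means in FPKM, a fragment count scaled to gene length and depth, and the deposited 18-month values are group means of a normalized expression signal whose unit the authors did not name. In both, every mean has 0.01 added. The 12-week comparison tables that the authors deposited hold a test score, a p-value and a q-value per gene. The deposited 18-month table holds the authors' log2 fold with p-values and q-values of DESeq2, per the file headers. Its fold runs opposite to the group means in 99.876% to 100% of called genes with a mean of at least 5, depending on the comparison, so its sign was turned to match the first-named group over the second.

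From these, differences of log2(mean + 1), class medians, shares, implied standard errors (absolute fold over the normal quantile of its p-value), a Wald test between tissues and motif counts were computed with Python 3.11.15, numpy 2.4.6, pandas 2.3.3 and scipy 1.17.1, and the scripts were tested on simulated data. Medians cover members with a mean of at least 1 in some group of the age and tissue. Shared sequence was counted as 150-base windows of transcripts found in another gene. Groups follow the labels, and no value per library was used. Every member could be named. Members and lists were chosen with earlier results of these data known, and the test between tissues was chosen after seeing the data. The alternatives tried were other thresholds, filters, pseudocounts, centring, folds and adjustments. Metabolite tables were not used here.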

Additional observations from a re-analysis of the deposited data

Results flagged for a closer look

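At 18 months 7 differences between the liver fold and the kidney fold of the same comparison passed an adjusted p of 0.05 in the Wald test over all genes. For sex these were H2-M2 at 4.27, H2-Aa at 2.71, Ciita at 1.9997, H2-Q10 at 1.97 and H2-T22 at 0.85, all on the log2 scale as liver minus kidney. For castrated males over sham females they were Ctss at -2.21 and H2-M2 at -4.25. H2-M2 stayed under a mean of 1 in every kidney group, and H2-Q10 and 4 of 6 hepatocyte markers had their lowest 18-month kidney mean in sham females. Whether either bears on these values was not tested.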

How the results depend on the processing

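No paired analysis was possible because the values used are group means and carry no replicate number, and leaving out a library or fitting a replicate block was not run for the same reason. None of 66 called single-gene differences changed sign under centring on all genes, nor did the 35 of 18 months under the authors' deposited fold. Of the 66, 36 had an adjusted p of 0.01 or above. The 2 other pseudocounts cannot change the sign of a difference between 2 means, so they do not test it.

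With an adjusted p under 0.01, castration called 2 class I and 0 class II members in 12-week kidney, 2 and 3 in 18-month kidney, and 0 class II members in 18-month liver. Sex then called 0 class II members in 12-week kidney, 0 class I in 12-week liver, 1 class I in 18-month kidney and 0 class II in 18-month liver, and castrated males against sham females 0 class I and 1 class II in 18-month kidney. Under 0.1 the 18-month counts were 11 class I for castration in kidney, 4 class I and 9 class II for castrated males against sham females in kidney, and in liver 3 class II for castration and 9 for sex. With a 1.5-fold minimum they were, at 12 weeks, 3 class I and 0 class II for castration and 1 class II for sex in kidney, and 1 class I for sex in liver. Requiring a mean of 1 left 0 class I members for castrated males against sham females in 18-month kidney. Adjusting over genes that reached a mean of 1 gave 7 class II members there, and in liver 2 for castration and 8 for sex. The test between tissues kept 1 member for castrated males against sham females when adjusted over genes that reached a mean of 5 in both tissues.

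Class II medians with a pseudocount of 5 were 0.40 for castration and 0.59 for sex in 12-week liver, 0.55 for castration in 18-month kidney, and in 18-month liver 0.69 for castration and 1.40 for sex, and -0.83 between castrated males and sham females. The class I median for castration there was 0.17. With 0.1, the class II medians for castration were 0.90 in 12-week and 1.43 in 18-month liver. Without a filter the class I median for castration in 12-week kidney was 0.12, against 0.42 with it. After centring on all genes, class II medians were 0.54 for castration and -0.065 for sex in 18-month kidney, and -0.0012 for castrated males against sham females in 12-week kidney. The sex sign in 18-month kidney turned, and the authors' fold gave -0.089 there. The authors' fold gave class I medians for sex of 0.11 in 18-month kidney and 0.51 in 18-month liver. Pseudocounts and thresholds move these values by construction, and the cause of the other shifts was not tested. Depth is unknown and sets no stated limit here.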
